A study of Rattus norvegicus with 102 samples.

Results

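The genes described here are CA1 markers, that is genes whose RNA is known, or was found in these data, to be higher in subfield CA1 of the hippocampus than in CA3 or the dentate gyrus (DG). The list named 9 genes, of which 8 had a row in the deposited tables, among 26284 genes listed in the Illumina table. Wfs1, Ndst4, Nts, Cd3e, Cftr, Gpr161 and Fibcd1 were found by name, Man1a was found as Man1a1 through a RefSeq synonym, and Pou3f1 was not analysed here. Nts, Cd3e and Cftr were chosen by their large CA1 excess, the log2 level in CA1 minus that in CA3 and DG, in these same libraries, and the others are general CA1 markers, so differences between subfields are described below without a test. Age, cognition and the spread between rats within CA1 played no part in the choice and were tested. The rat number series played no part in it either and was tested, but that comparison was added after the marker values had been seen.

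The hippocampus was divided into CA1, CA3 and DG in 34 male Fisher 344 rats (Fischer 344 in the usual spelling), for which the labels name no drug or other treatment. The 10 young rats had an age of 5 to 6 months and the 24 aged rats one of 17 to 22 months, and the latter were labelled aged-unimpaired (AU, n = 12) or aged-impaired (AI, n = 12) by their memory for a hidden platform in a water maze. By the study's methods the subiculum was separated from CA1 at dissection and CA2 was not isolated. Each rat gave 1 library per subfield to each of 3 deposited sets: poly-A RNA on an Illumina, poly-A RNA of the same samples on an Ion Proton, and a set named WT by the submitters. The unit is the normalised count, a read count divided by the library's size factor, which is not corrected for gene length, so levels are compared between libraries and not between genes.

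In the hippocampal circuit, granule cells of the DG send mossy fibres to pyramidal cells of CA3, and CA3 axons reach the pyramidal cells of CA1, whose output goes mainly to the subiculum and entorhinal cortex. Each of these principal cell types expresses genes that the others express weakly, and such genes are used to tell the subfields apart. The markers here act in different places: neurotensin is secreted, Cd3e, Cftr, Gpr161 and Fibcd1 encode proteins of the cell membrane, wolframin lies in the endoplasmic reticulum, and Ndst4 and Man1a1 encode enzymes of the Golgi apparatus.

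Illumina depth ran from 3.25 to 42.8 M reads (median 10.7 M), and Ion Proton depth from 4.47 to 21.4 M. Levels in CA1 were set against the mean of CA3 and DG on the log2 scale, for listed subfield genes averaging 10 or more in the Illumina table. Of 5 other CA1 genes 4 were higher in CA1 and 1 lower (median 1.58), with Nov at 1.91. Of 7 CA3 genes 1 was higher and 6 were lower (−0.71), and of 8 DG genes 4 were higher and 4 lower (−0.01). However, on lists of CA1, CA3 and DG genes that held none of the markers described here, 9 libraries lay closer to the median of another subfield than to that of their own in both the Illumina and the Ion Proton table, and these are called libraries apart. A further 4 did so in 1 of these tables only (R9862 CA3 and R9881 DG by Illumina, R9862 CA1 and R2232 DG by Ion Proton) and were kept. The 9 were 3 CA1, 4 CA3 and 2 DG libraries from 7 rats, all aged and all numbered from 9000 up, and the CA3 and DG libraries of rat R9781 each lay closest to the other's subfield. Labels were kept, and results are given with and without these 9 libraries. The rat numbers themselves form 2 series, 18 rats below 9000 (5 young, 13 aged) and 16 from 9000 up (5 young, 11 aged). The sizes of the series equal those the submitters give for their housing sites, but no label names the site of a rat. In tissue pieces, fewer cells of a type and less RNA per cell cannot be told apart.

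Nts (ENSRNOG00000004179, chromosome 7) encodes the precursor of neurotensin, a neuropeptide that acts on G protein-coupled receptors. Its Illumina level in CA1 had a lowest value of 78.5, a median of 618 and a highest of 978 normalised counts, against 4.48, 58.9 and 941 in CA3 and 0, 73.9 and 356 in DG. CA1 was the highest subfield in 31 of 34 rats, in all 18 rats below 9000 and in 26 of the 27 rats with no library apart. Within rats CA1 exceeded CA3 by 3.15 ± 1.67 and DG by 3.84 ± 2.87 on the log2 scale (mean ± SD, n = 34), the largest CA1 excess of 14179 genes by the mean of both differences. CA3 and DG did not differ beyond their spread (109 ± 173 and 92.2 ± 96.0).

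Cd3e (ENSRNOG00000016069, chromosome 8) encodes the epsilon chain of CD3, the signalling part of the T cell receptor. In CA1 it ran from 4.37 through a median of 42.1 to 221 normalised counts, or 4 to 634 reads. In CA3 the median was 2.63 and in DG 4.19, and 20 CA3 and 17 DG libraries were at or under 3 reads. Cd3e was highest in CA1 in 28 of 34 rats, ranked second by CA1 excess, and had a mean of 63.9 ± 56.4 normalised counts in CA1, 9.78 ± 21.3 in CA3 and 18.6 ± 28.3 in DG. The spread within CA1 was thus nearly as large as the mean. Defining T cell genes were near 0 in CA1: the other CD3 chains Cd3d and Cd3g averaged 0.72 and 0.67 normalised counts, Cd247 0.94, Cd2 0.82 and Cd5 0.09, with medians of 0 in both number series for Cd3g and Cd5. The signalling kinases Lck and Zap70 averaged 28.2 and 77.8. The summed level of all 10 T cell genes without Cd3e was 126 in CA1 (SD 27.7), against means of 95.4 in CA3 and 67.2 in DG, and both of the genes that passed the filter were higher in CA1, with a median excess of 0.57 on the log2 scale against 2.97 for Cd3e. Their part in the Cd3e excess was not tested. In CA1 the sum ran from 108 to 188 in CA1 of rats below 9000 and from 80.1 to 173 from 9000 up.

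Cftr (ENSRNOG00000008284, chromosome 4) encodes a chloride channel opened by cAMP signalling, best known from epithelia. It ran from 2.91 through 92.7 to 157 normalised counts in CA1, from 0 through 9.13 to 287 in CA3, and from 0 through 6.10 to 70.8 in DG. CA1 was highest in 28 of 34 rats in the Illumina table but in 22 of 34 in the Ion Proton table, where CA3 lay above CA1 in 10 rats. Of those 10 rats, 9 were numbered from 9000 up. Gpr161 (ENSRNOG00000003073, chromosome 13), a receptor of the primary cilium that restrains Hedgehog signalling, averaged 597 ± 195 in CA1, and CA1 was its highest subfield in 31 rats. The CA3 level was 279 ± 145 and the DG level 130 ± 94.9. Its order was graded, with CA3 above DG in 27 of 34 rats.

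Fibcd1 (ENSRNOG00000009735, chromosome 3), a membrane receptor that binds acetylated groups such as those of chitin, was the exception. In the Illumina table it had 9.16 ± 4.89 normalised counts in CA1, 8.78 ± 5.24 in CA3 and 2.38 ± 2.11 in DG, so CA1 and CA3 did not differ beyond their spread and CA1 was highest in 17 of 34 rats. These values rest on 0 to 47 reads per CA1 library (median 7.5). In the Ion Proton table, made from the same samples at a like depth (CA1 medians of 10.3 M reads by Ion Proton and 11.1 M by Illumina), 42 to 1351 reads (median 596.5) fell on it, and the levels were 585 ± 260, 480 ± 265 and 127 ± 101. In that table CA1 exceeded CA3 by 0.45 ± 1.28 on the log2 scale in 21 of 34 rats and DG by 2.42 ± 1.49 in 33 of 34. By these values Fibcd1 separated CA1 and CA3 from DG better than it separated CA1 from CA3. The WT table had 0 to 6 reads per CA1 library, and why the tables differ was not tested.

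Wfs1 (ENSRNOG00000005108, chromosome 14) encodes wolframin, a membrane protein of the endoplasmic reticulum that is mutated in Wolfram syndrome. It ran from 1348 through 5849 to 14868 normalised counts in CA1, from 395 through 1286 to 4393 in CA3, and from 337 through 1270 to 5771 in DG. CA1 was highest in 32 of 34 rats, and in all 27 rats with no library apart. CA1 held 3.67 times the CA3 mean and 3.94 times the DG mean, while CA3 and DG did not differ beyond their spread. Ndst4 (ENSRNOG00000009577, chromosome 2), which removes acetyl groups from heparan sulfate chains and adds sulfate in their place, stood at 238 ± 135, 71.3 ± 90.5 and 46.7 ± 31.1 in CA1, CA3 and DG and was highest in CA1 in 30 rats. Man1a1 (ENSRNOG00000000800, chromosome 20), a mannosidase that trims N-linked glycans, stood at 815 ± 245, 472 ± 143 and 310 ± 83.9 and was highest in CA1 in 29 rats. Its CA1 excess ranked 75th of 14179 genes, with 1.07 on the log2 scale, against ranks 7 and 8 for Ndst4 (2.20) and Wfs1 and 19 for Gpr161 (1.79).

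Without the 9 libraries apart the order of the markers was nearly the same. The mean excess over CA3 (n = 27 rats) was then 3.39 for Nts, 3.22 for Cd3e, 2.81 for Cftr, 2.52 for Ndst4, 2.27 for Wfs1, 1.27 for Gpr161, 0.84 for Man1a1 and 0.18 for Fibcd1 on the log2 scale. Over DG (n = 29 rats) it was 4.38 for Nts, 3.10 for Cftr, 2.81 for Cd3e, 2.59 for Gpr161, 2.51 for Ndst4 with Wfs1 just below it, 1.87 for Fibcd1 and 1.48 for Man1a1. Wfs1 was then higher in CA1 in every rat of both comparisons (27 of 27 and 29 of 29).

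**Figure D1:**
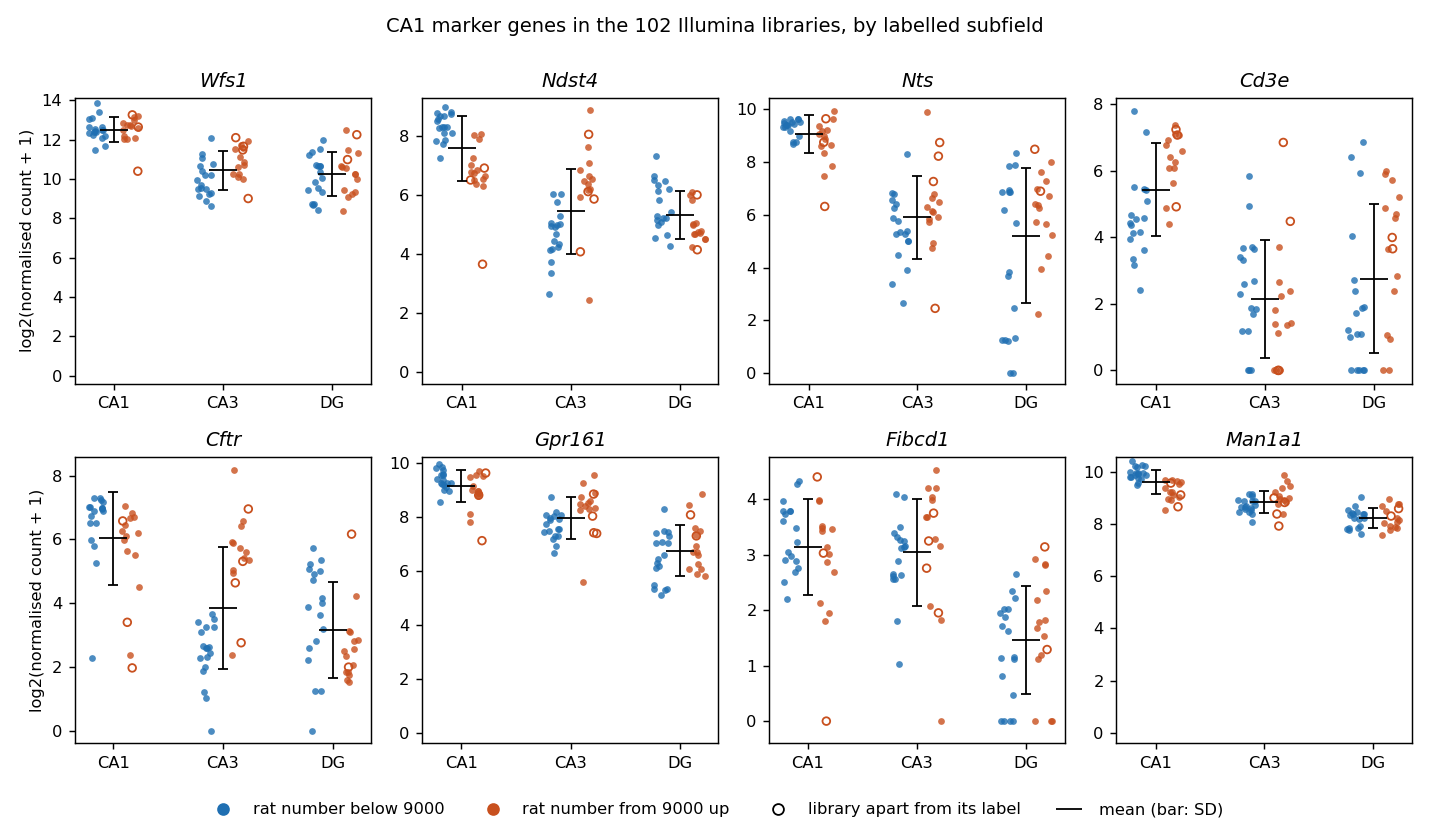
Level of each CA1 marker gene in every Illumina library, as log2(normalised count + 1), by labelled subfield. Points are libraries (34 per subfield), blue for rats numbered below 9000 and orange from 9000 up, open circles are the 9 libraries apart by both Illumina and Ion Proton, and black lines are the mean with a bar of 1 SD. CA1 is above CA3 and DG for every gene but Fibcd1, and the orange CA1 points of Ndst4 and Man1a1 lie mostly below the blue ones.

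Most lists of genes related to the markers had medians near 0, while single relatives reached the size of the lower markers. Among 15 genes of heparan sulfate synthesis and editing, 10 had a higher mean log2 level in CA1 than in the mean of CA3 and DG and the median difference was 0.06, beside 0.01 over all 14179 genes. The largest differences were those of Ndst3 (1.08), a paralogue of Ndst4, and Hs3st2 (0.84), a sulfotransferase. Among 7 other N-glycan trimming genes the median was 0.05, with Man2a1 at 0.23 and Man2a2 at 0.19. Chloride transport genes had a median of 0.14 over 6 genes, led by the anion exchanger Slc26a4 (0.85) and the chloride channel Ano1 (0.21). For neurotensin, the processing enzyme Pcsk2 was lower in CA1 (−0.30) and the receptor Ntsr2 higher (0.27), with a median of −0.10 over 5 genes. Hedgehog genes of the cilium had a median of −0.04 over 10 genes (0.06 by Ion Proton), with Gli2 at 0.26 and Gli1 at 0.17, and genes of endoplasmic reticulum stress a median of −0.02 over 9, with Atf6 at −0.13 and Ddit3 at −0.09. All 3 class III POU factors measured were higher in CA1, with a median of 0.35 and the values 0.48 for Pou3f3 and 0.35 for Pou3f4. Several lists of other cells were higher in CA1 in the Illumina table, where 7558 of 14179 genes were: the median was 0.50 for the subiculum (4 of 5 genes higher), 0.62 for the choroid plexus (8 of 8), 0.35 for endothelium (6 of 6), 0.28 for oligodendrocytes (6 of 6), 0.22 for interneurons (5 of 5) and 0.15 for microglia (9 of 9). In the Ion Proton table the last 2 lists turned, with −0.06 for interneurons (2 higher, 4 lower) and −0.03 for microglia (3 higher, 6 lower). Their part in the CA1 excess of the markers was not tested.

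Genes outside the list that followed each marker most closely over all Illumina libraries were found by Pearson r, as a description, since these libraries come from 34 rats and share their depth and the subfield differences themselves. For Gpr161 they were Met (r = 0.94, and 0.87 in the Ion Proton table) and Ptpru (0.93 and 0.92). For Wfs1 they were Arhgap12 (0.91 and 0.76) and Tmem44 (0.90 and 0.74), and for Man1a1 Mylip (0.91 and 0.86) and Met (0.91 and 0.87). Cftr was followed by Chrna5 (0.90 and 0.76) and Nxph3 (0.90 and 0.81), Ndst4 by its paralogue Ndst3 (0.87 and 0.79) and Dclk1 (0.85 and 0.74), and Nts by AABR06039834.1 (0.88 and 0.82) and Ttc9 (0.85 and 0.76). The closest genes were less alike for Cd3e, with Wnt2 (0.83 and 0.72) and F12 (0.80 and 0.67), and for Fibcd1, with Sertm1 (0.79 and 0.70) and Ptpru (0.79 and 0.89).

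The letters around the starts of the 8 genes were searched. RefSeq (GRCr8, a later build than the one the reads were aligned to) gave 9 promoters for the 8 genes, each from 250 bases before to 50 bases after a start. A sequence close to the cAMP response element, TGACATCA on either strand, was found in Nts, Ndst4 and Cftr, and in 4.34% of 33469 rat promoters of the same length. It was not found in the windows of Cd3e, Wfs1, Gpr161, Fibcd1 or Man1a1, of which Cd3e had the second largest CA1 excess. This motif was chosen after the sequences had been seen, and the 3 genes are shown because they hold it. The 250 bases before the Nts and Ndst4 starts are shown, and for Cftr, where the match begins at base 14 after the start, the 30 bases around it. Capitals mark TGACATCA, which begins 72 bases before the Nts start and 157 before the Ndst4 start, and in Nts also an AP-1 site, TGACTCA, read on the other strand and beginning 212 bases before the start (4.63% of promoters).
Nts, chr7:39460889-39461138, minus strand: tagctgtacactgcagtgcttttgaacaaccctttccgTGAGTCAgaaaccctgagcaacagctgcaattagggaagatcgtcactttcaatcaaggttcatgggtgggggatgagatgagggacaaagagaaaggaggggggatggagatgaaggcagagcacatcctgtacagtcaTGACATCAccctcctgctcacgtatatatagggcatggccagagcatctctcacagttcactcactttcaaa
Ndst4, chr2:216461293-216461542, plus strand: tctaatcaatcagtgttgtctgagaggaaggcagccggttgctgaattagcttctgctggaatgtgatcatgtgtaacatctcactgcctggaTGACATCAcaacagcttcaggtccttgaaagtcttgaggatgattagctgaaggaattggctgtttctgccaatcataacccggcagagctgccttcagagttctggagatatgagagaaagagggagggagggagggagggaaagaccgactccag
Cftr, chr4:47527631-47527660, plus strand: ttggaagcaaaTGACATCAcctcaggactg

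The Cftr match overlaps an E-box (CANNTG), a motif that 6 of the 8 genes and 72.1% of all promoters held. CCAAT was found in 5 of the 8 genes (37.5% of promoters) and GGGCGG in 5 (33.1%), both on either strand. The whole element TGACGTCA (1.83%), the octamer ATGCAAAT of POU factors (1.78%) and TATAAA (14.2%) were not among the letters of any of the 9 windows. G and C made up 50.3% of the Nts window and 51.0% of that of Ndst4, against 55.3% to 75.3% in the other windows.

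Whether the markers changed with age was asked within each subfield, aged (n = 24) against young (n = 10) rats. In CA1, 0 of the 7 markers tested were called by limma at an adjusted p under 0.05, where 48 of 14191 genes (0.338%) were called, all higher in aged rats. Fibcd1 did not reach a mean of 10 in the Illumina table, where it was tested only with no filter (0.25, SE 0.32, limma adjusted p = 0.97), and is given from the Ion Proton table (0.10, SE 0.32, adjusted p = 0.96), where 0.0197% of genes were called. The log2 changes in CA1 ran from −0.39 for Cd3e (SE 0.50, limma adjusted p = 0.97) to 0.20 for Cftr (SE 0.53, adjusted p = 0.99). For Wfs1 the change was −0.17 (SE 0.22) and for Man1a1 0.01 (SE 0.17). No marker was called in CA3, where 0% of 14246 genes were called, or in DG, where 0.3% of 14019 were. In CA3, 471 genes had an unadjusted p under 0.05, none of them a marker, and edgeR called 9 genes (0.0632%) and no marker. Among markers of other cell types, Trem2 was higher in CA1 of aged rats (0.49, limma adjusted p = 0.0057), 1 of 9 microglia genes tested. In CA1 the choroid plexus list had a median change of 0.72 with none of its genes called. In DG 4 of 9 microglia genes and 1 of 6 astrocyte genes were called, all higher in aged rats.

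Cognition was examined in aged rats alone, AI (n = 12) against AU (n = 12). No gene was called in CA1, CA3 or DG (0% of 14205, 14232 and 14011 genes by limma, and 0 by edgeR), while 811, 199 and 539 genes had an unadjusted p under 0.05. Wfs1 in CA1 ran from 4355 through 6521 to 10832 normalised counts in young, from 1348 through 7467 to 14868 in AU and from 2895 through 5447 to 6387 in AI rats. The AI range lay inside the AU range, and the log2 difference was −0.32 (SE 0.26, unadjusted p = 0.22, limma adjusted p = 1.00). Without the 3 CA1 libraries apart it was −0.51 (SE 0.19, unadjusted p = 0.014, adjusted p = 0.47).

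Cd3e in CA1 ran from 9.23 through 71.1 to 143 in young, from 4.37 through 43.6 to 221 in AU and from 7.97 through 22.1 to 149 in AI rats, so that all groups overlapped. Its AI minus AU difference was −0.88 on the log2 scale (SE 0.52, unadjusted p = 0.11, limma adjusted p = 0.94) in the Illumina table. It was −1.09 in the Ion Proton table (unadjusted p = 0.033, adjusted p = 1.00) and −1.17 in the WT table (unadjusted p = 0.033, adjusted p = 0.71), which hold the same rats and so do not repeat the comparison in other animals. None of these differences passed the correction. Nts, the gene with the largest CA1 excess, had medians of 618, 676 and 576 in young, AU and AI rats and a log2 difference of 0.11 (SE 0.32), and Ndst4, Cftr, Gpr161 and Man1a1 had differences of 0.41 (SE 0.45), 0.59 (SE 0.57), −0.24 (SE 0.24) and −0.10 (SE 0.18).

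The lists for neurotensin, endoplasmic reticulum stress, heparan sulfate, N-glycans, Hedgehog signalling, class III POU factors and chloride transport had 55 genes tested. In CA1 0 of them were called for age or for cognition. With 0.338% of all genes called for age and 0% for cognition, this count says nothing particular about the lists. When the effect of age or of cognition was compared between subfields, 6 comparisons in all, limma called 0 of 7 markers and 0% of 14179 genes in each. By edgeR 14 genes (0.0987%) differed in their age effect between CA1 and CA3, 2 (0.0141%) in their cognition effect between CA1 and CA3 and 1 (0.00705%) in that between CA3 and DG, none of them a marker.

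**Figure D2:**
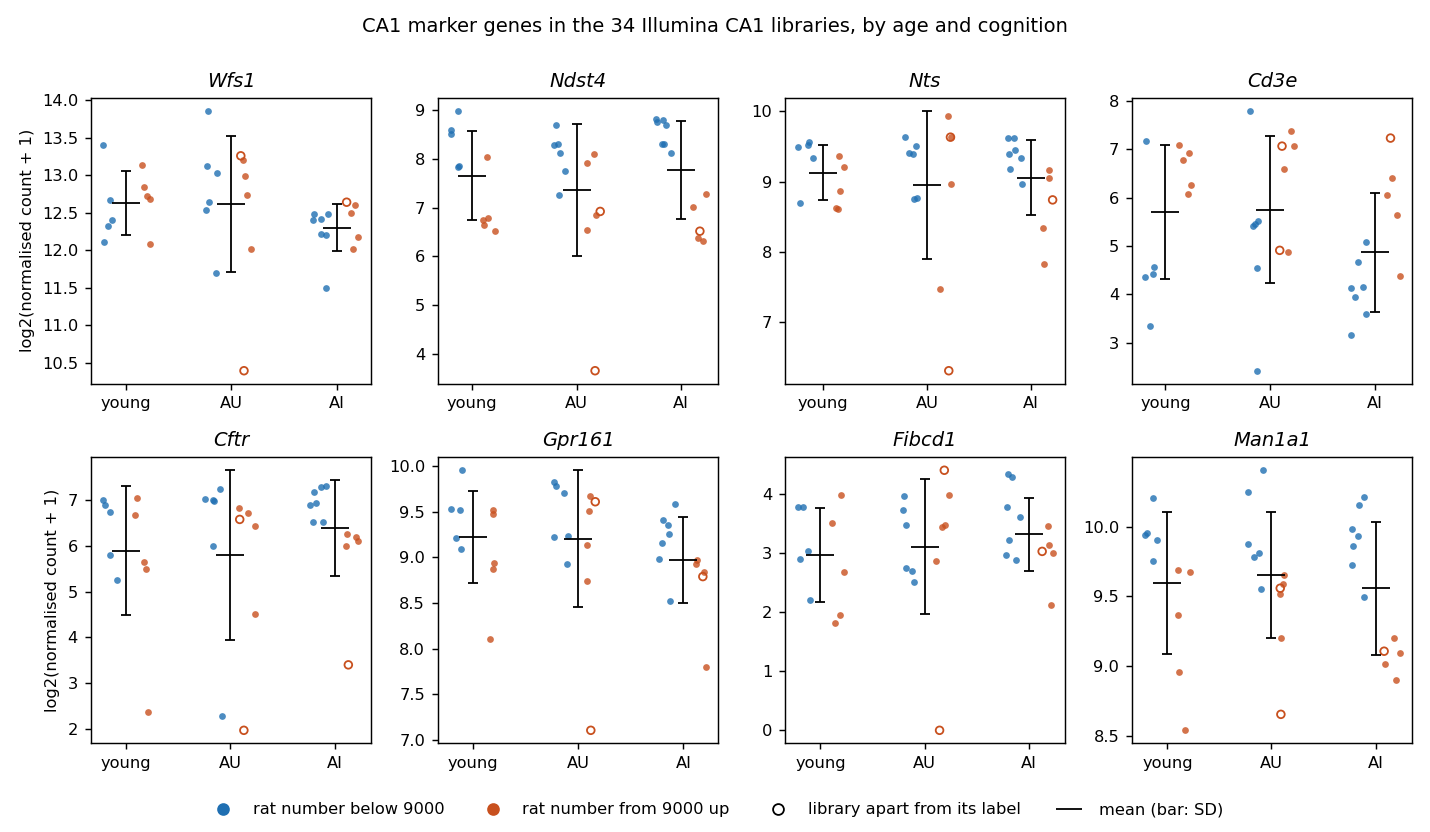
Level of each CA1 marker gene in the 34 Illumina CA1 libraries, as log2(normalised count + 1), for young (n = 10), AU (n = 12) and AI (n = 12) rats. Points are libraries, coloured by number series with open circles for the 3 CA1 libraries apart, and black lines are the mean with a bar of 1 SD. The groups overlap for every gene, and for Ndst4, Cd3e and Man1a1 the colours divide the points more than the groups do.

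The number series was set against the markers because it divided them in the plots by group. This comparison was chosen after the data had been seen, with the rat groups as covariates. Its p-values in CA1 therefore describe a division already seen and are no independent support for it. In CA1, 5 of 7 markers differed between the series by limma, 1 higher and 4 lower from 9000 up, beside 35.1% of all 14191 genes (17.3% higher and 17.8% lower), so a difference as such was common. Ndst4 ran from 152 through 316 to 507 normalised counts in CA1 of rats below 9000 and from 11.6 through 108 to 272 from 9000 up, a log2 difference of −1.56 (SE 0.25, adjusted p = 1.6e-05). Man1a1 ran from 720 through 967 to 1356 and from 371 through 587 to 823 (−0.71, SE 0.10, adjusted p = 2.2e-06). The series overlapped only in part for both genes, and both differences were also called in the Ion Proton table (−1.53 and −0.71), where 3 of 8 markers were called beside 8.03% of genes. Without the libraries apart 5 of 7 were called in the Illumina table, beside 30.6%.

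Cd3e went the other way in CA1, from 4.37 through 21.4 to 221 below 9000 and from 19.8 through 89.3 to 164 from 9000 up. Its log2 difference was 1.59 (SE 0.37, limma adjusted p = 0.0010), and 1.32 in the Ion Proton table (adjusted p = 0.024). Of the 10 other T cell genes, 3 could be tested in CA1, of which 2 were lower and 0 higher from 9000 up. Nts (−0.58, limma adjusted p = 0.039) and Gpr161 (−0.49, adjusted p = 0.028) were lower from 9000 up in the Illumina table and were not called in the Ion Proton table (−0.60 and −0.35). Wfs1 had means of 6375 and 6301 in the series and a log2 difference of −0.05 (SE 0.20, adjusted p = 0.86), and Cftr a difference of −0.94 (SE 0.46, adjusted p = 0.11).

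In CA3, 4 of 6 markers were called, all higher from 9000 up, where 51.8% of 14246 genes were called and 25.4% were higher. Of these, Cftr passed the filter through the rats from 9000 up alone, as its mean below 9000 was 5.38, so its difference is a description and no support is drawn from it. In CA3 it ran from 0 through 4.97 to 11.5 normalised counts below 9000 and from 4.14 through 44.2 to 287 from 9000 up. The lowest libraries of the upper series overlapped the lower series, and the log2 difference was 3.01 (SE 0.40), 2.96 in the Ion Proton table and 3.16 without the libraries apart. By Ion Proton 4 of 7 markers were called in CA3, beside 19.5%, and without the libraries apart 5 of 6, beside 53.2%, with Cftr in each count. Ndst4 in CA3 ran from 5.32 through 27.1 to 65.3 and from 4.49 through 84.5 to 475 (1.67, SE 0.39, limma adjusted p = 6.3e-04). Wfs1 (0.95, adjusted p = 0.0060) and Gpr161 (0.62, adjusted p = 0.027) were also higher in CA3, and Man1a1 joined them without the libraries apart (0.41, adjusted p = 0.0059). Nts differed by 0.90 (adjusted p = 0.14), and Cd3e was too low in CA3 to be tested.

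Thus Ndst4 was lower in CA1 and higher in CA3 of rats numbered from 9000 up. The difference between the subfields was itself tested and reached −3.23 for Ndst4 (SE 0.45, limma adjusted p = 5.9e-09). It was also called for Gpr161 (−1.11, adjusted p = 0.0093) and Man1a1 (−0.97, adjusted p = 3.9e-06). Cftr (−3.95, SE 0.66) and Cd3e (2.19, SE 0.83) were past the threshold too, but their CA3 levels were under the filter, those of Cftr below 9000 and those of Cd3e over all CA3 libraries, 20 of 34 of which were at or under 3 reads. Cd3e was not called by Ion Proton, and nothing is read from either value. With both counted, 5 of 7 markers were called beside 39.7% of 14179 genes, 19.5% in the lower direction, that of 4 markers, and 20.1% in the higher one. By Ion Proton 3 of 8 were called (Ndst4, Cftr and Man1a1), beside 14.7% of genes, and without the libraries apart the count was again 5 of 7, beside 40.5%. With the rat as a replicate block, which pairs its subfields, 6 of 7 were called beside 44.3%: the same 5 and Wfs1 (−1.01, adjusted p = 0.048, against 0.054 without the block). For Ndst4, CA3 lay above DG in 4 of 18 rats below 9000 and in 13 of 16 from 9000 up, and in all 9 rats from 9000 up with no library apart.

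In DG only Ndst4 was called (−0.65, limma adjusted p = 0.044), 1 of 7 markers beside 30.6% of 14019 genes. It was not called without the libraries apart (−0.65, adjusted p = 0.052), where 28.6% of genes were. Cftr was then past the threshold (−1.21), but its mean in DG was under the filter from 9000 up (9.18). The Cftr difference is thus a description, and no support is drawn from it. By Ion Proton Ndst4 was again the 1 marker called in DG (−0.74), beside 20.5%. The difference between CA1 and DG was called for Man1a1 alone (−0.75, adjusted p = 0.021), 1 of 7 beside 0.98% of 14179 genes. It was also the 1 marker called by Ion Proton (−0.96, adjusted p = 0.030, beside 0.314%), with the replicate block (adjusted p = 0.023, beside 2.01%) and without the libraries apart (beside 0.551%).

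**Figure D3:**
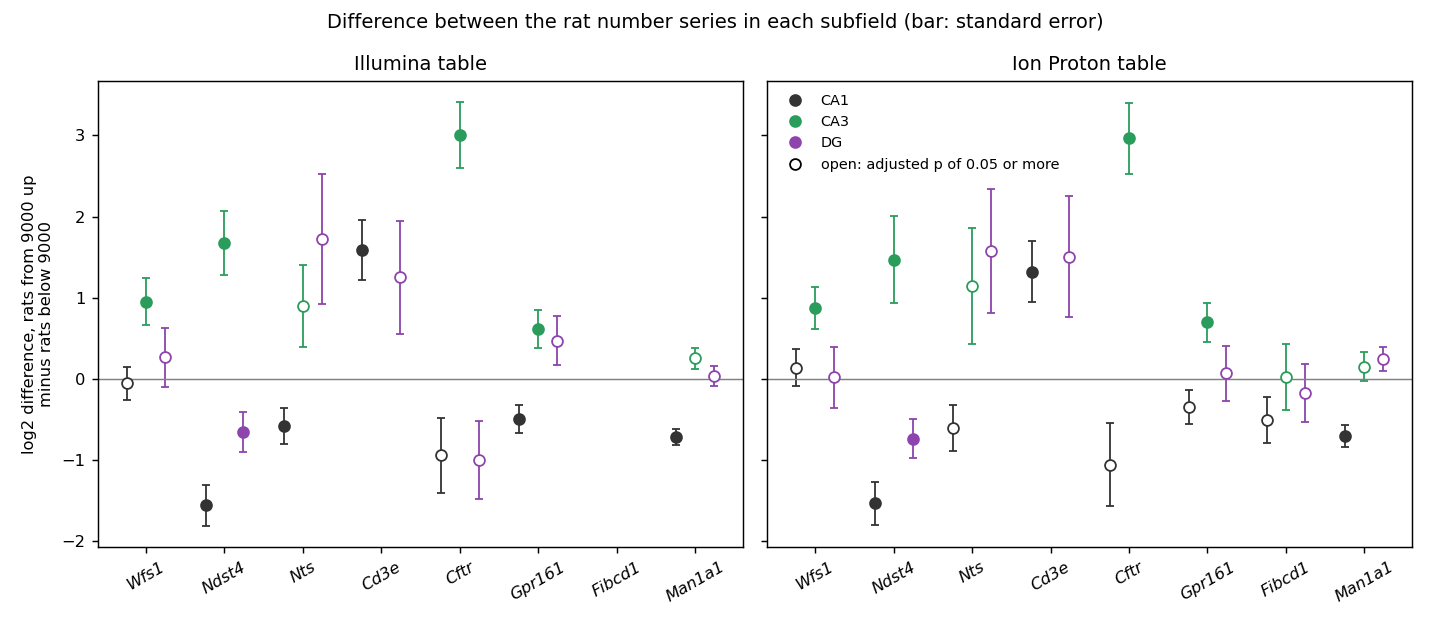
Log2 difference between rats numbered from 9000 up and below 9000 for each CA1 marker gene in CA1, CA3 and DG, in the Illumina and Ion Proton tables. Points are limma estimates with a bar of 1 SE, filled where the adjusted p was under 0.05, and genes with a mean under 10 have no point. Ndst4 lies at −1.56 in CA1 and 1.67 in CA3, with like positions in the Ion Proton panel, and the CA3 point of Cftr (3.01) rests on levels under the filter below 9000.

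Markers of other cells also differed between the number series in these pieces. Their counts stand beside the shares of all genes given above, 25.4% higher and 26.4% lower in CA3 and 17.3% higher and 17.8% lower in CA1, and such counts as 3 of 7 or 2 of 5 are not far from these. In CA3 of rats from 9000 up, 6 of 8 DG genes and 4 of 5 subiculum genes were higher with 0 and 1 lower, 4 of 5 other CA1 genes were higher and 1 lower, and 4 of 6 CA2 genes and 3 of 7 CA3 genes were lower with 1 higher in each list. The summed level of 6 subiculum genes in CA3 ran from 2833 to 3822 below 9000 and from 3168 to 7932 from 9000 up. In CA1 of the same rats 8 of 9 choroid plexus genes were higher and 0 lower, with a median summed level of 655 against 84.8 (ranges 108 to 157700 and 19.6 to 12140). All 6 oligodendrocyte and all 6 astrocyte genes were higher in CA1, whereas in CA3 all 6 oligodendrocyte genes were lower (median −0.67 on the log2 scale) and all 6 endothelium genes higher (0.52). In CA1 4 of 5 interneuron genes were lower, and 2 of 5 other CA1 genes were lower. In DG 5 of 8 DG genes were lower (median −0.54), 6 of 6 oligodendrocyte (0.99) and 6 of 6 astrocyte genes (0.28) higher and 4 of 5 choroid plexus genes higher (2.41), beside 30.6% of genes called. Median depth was close in both series (12.0 and 10.4 M reads in CA1, 10.4 and 9.63 in CA3). The part of these cell types in the marker differences was not tested, and the number series and whatever it stands for cannot be told apart.

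How the markers varied together between rats was examined over the 34 Illumina CA1 libraries, with 28 pairs tested by Pearson r and Spearman rho of log2(normalised count + 1), permutation p-values and Benjamini-Hochberg adjustment over the pairs of each coefficient. Since the series stand apart for Ndst4, Cd3e and Man1a1, r is given within each. After adjustment 7 pairs were called by r below 9000 (5 positive and 2 negative) and 4 by rho, against 21 by r, all positive, and 18 by rho from 9000 up. All 3 CA1 libraries apart belong to the latter series. Over both series 18 pairs were called by r, 17 positive and 1 negative, and without the libraries apart 14 were, 11 positive and 3 negative. The share of other gene pairs called in these libraries was not computed, so the counts are not read as a trait of the markers.

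Wfs1 and Cd3e rose and fell together within both series. Below 9000, r was 0.95 (n = 18, two-sided permutation p = 1e-05, the smallest the resamples can give, adjusted p = 2.8e-04) and rho 0.94 (permutation p = 1e-05, adjusted p = 2.8e-04), and r was 0.90 without the 2 libraries farthest from the Wfs1 median. From 9000 up, r was 0.73 (n = 16, permutation p = 0.0010, adjusted p = 0.0026) and rho 0.73 (permutation p = 0.0018, adjusted p = 0.0062), and r was 0.69 without the 2 farthest libraries. At a given Wfs1 level the Cd3e points of the upper series lay higher in the plot of pairs. Gpr161 and Man1a1 also kept together, with r = 0.82 (n = 18, permutation p = 4e-05, adjusted p = 5.6e-04) and rho = 0.83 (permutation p = 6e-05, adjusted p = 8.4e-04) below 9000. From 9000 up these genes had r = 0.81 (n = 16, permutation p = 1.2e-04, adjusted p = 5.6e-04) and rho = 0.75 (permutation p = 0.0011, adjusted p = 0.0052). Leaving out the 2 farthest libraries gave r = 0.75 and 0.85.

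Ndst4 and Cftr had r = 0.78 below 9000 (n = 18, permutation p = 1.3e-04, adjusted p = 0.0012), with rho = 0.55 (permutation p = 0.019, adjusted p = 0.085) and r = 0.69 without the 2 farthest libraries. From 9000 up r was 0.70 (n = 16, permutation p = 0.0012, adjusted p = 0.0029), rho 0.63 (permutation p = 0.0097, adjusted p = 0.021) and r without 2 libraries 0.45. The negative relation of Cd3e and Cftr below 9000 (r = −0.71, n = 18, permutation p = 0.0022, adjusted p = 0.012) rested on 2 libraries: without them r was −0.09, and rho was −0.15 (permutation p = 0.55, adjusted p = 0.67). From 9000 up the same pair had r = 0.30 (n = 16, permutation p = 0.25, adjusted p = 0.26), rho = 0.26 (permutation p = 0.33, adjusted p = 0.35) and r = 0.40 without 2 libraries. Likewise the relation of Wfs1 and Cftr below 9000 (r = −0.66, n = 18, permutation p = 0.0045, adjusted p = 0.021) fell to −0.02 without 2 libraries, with rho = −0.12 (permutation p = 0.64, adjusted p = 0.75).

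**Figure D4:**
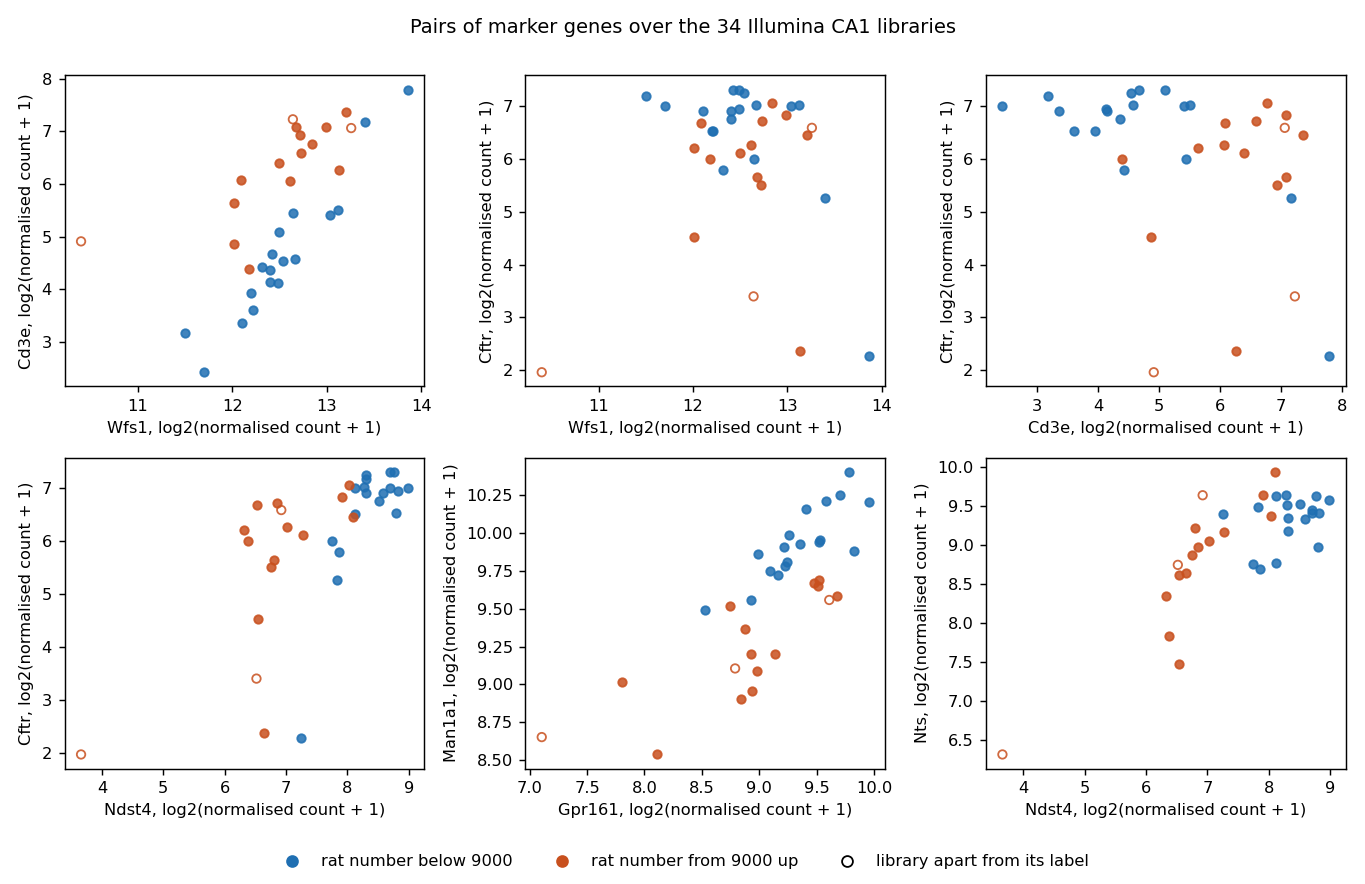
Pairs of CA1 marker genes over the 34 Illumina CA1 libraries, both axes as log2(normalised count + 1). Points are libraries, blue below 9000 and orange from 9000 up, with open circles for the 3 CA1 libraries apart. Cd3e rises with Wfs1 along a separate band in each series (r = 0.95 and 0.73), while single libraries with low Cftr at high Wfs1 or Cd3e set the negative relations of the blue points.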

How the data were processed

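RNA was measured in CA1, CA3 and DG of 34 rats. The deposited values are a signal, gene counts that the authors divided by DESeq2 (1.16.1) size factors. Normalisation was separate in each table, so tests stay within one. Illumina reads had been trimmed with CutAdapt (1.8.3), aligned to rn5 with STAR (2.5) and counted with featureCounts (1.4.4). For Ion Proton reads TopHat2 and Bowtie2 were used in place of STAR. How the WT table was made is not given in the sources used here. The sources name different TruSeq kits, so it is unknown whether counts were stranded, and reads of overlapping or antisense genes may be shared.

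Whole reads were recovered for 100.0% of values above 0 (within 0.01 read) in each table. Their totals are the depths given. limma (3.58.1, R 4.3.3) with a variance trend was run on log2(value + 1) for genes averaging 10 or more over the libraries of a fit, a scale that understates changes of low genes, with Benjamini-Hochberg adjustment over all genes. edgeR (4.0.16) quasi-likelihood tests on the recovered reads were an alternative and called 24 genes for age in CA1. Tested on simulated data for that comparison (14191 genes), limma recovered 80% of genes changed 1.5-fold and 91% of those changed 2-fold. The simulated spread between rats was capped, and the simulation held no number series and no libraries apart. These shares therefore do not apply to markers with a wide spread, such as Cd3e and Cftr. Replicates are separate rats. The same rat gave all 3 subfields, which pairs them; deviations from the group means had a median correlation of 0.09 between CA1 and CA3 and 0.19 between CA1 and DG. Permutation tests used 100000 resamples.

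The genes, lists and comparisons were chosen with earlier results of these data known. Named were all markers, the 2 genes of each related list with the largest CA1 difference, any gene of those lists called in CA1, and the 2 genes most like each marker. Alternatives are given in the closing section.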

Additional observations from a re-analysis of the deposited data

Results flagged for a closer look

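In the 10 young rats, 2 of 24 gene and subfield groups held a library far from the rest by Dixon's test, where chance alone gives about 1 in 20. Nts in CA3 of young rat R9879 stood at 941 normalised counts, inside the CA1 range of that gene, and Cftr in CA1 of young rat R9780 stood at 4.16, inside its CA3 and DG ranges. Neither library was among the 9 apart by both Illumina and Ion Proton. The CA3 library of R9879 was nonetheless nearest to CA1 in the WT table, had an Illumina score (mean z-score) of 0.65 on other CA1 genes and −0.63 on CA3 genes, and was the highest young CA3 library for Wfs1, Ndst4, Cftr, Gpr161 and Man1a1 too.

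The difference between the rat number series was not the same in CA1 and CA3 by limma for 5 of 7 markers, beside 39.7% of 14179 genes, and 3 of the 5 (Ndst4, Gpr161 and Man1a1) had mean levels above the filter in both subfields and series. It was −3.23 on the log2 scale for Ndst4, 2.19 for Cd3e, −3.95 for Cftr, −1.11 for Gpr161 and −0.97 for Man1a1. The values of Cd3e and Cftr rest on CA3 levels under the filter, for Cftr in the rats below 9000, and that of Cd3e was not called in the Ion Proton table, so both are given as values only. Between CA1 and DG it differed for Man1a1, by −0.75. Markers of the subiculum, DG granule cells and choroid plexus moved with the series too, and their part was not tested.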

How the results depend on the processing

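No marker was called for age, cognition or a difference of either between subfields under any setting tried for it, and leaving out 1 rat at a time, run for age and cognition within a subfield, gave none either. With the rat as a replicate block 0 genes and 0 markers were called for the age and cognition differences, as without it. For the number series the block took the genes called between CA1 and DG from 139 to 285 and added Wfs1 between CA1 and CA3. It changed no other call of a marker. The 128 alternative values of the log2 differences of CA1 from CA3 and from DG each moved by less than 1 SD.

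Counts of all genes moved more, and the cause was not tested. For age in CA1, 48 genes became 24 by edgeR, 112 with the number series as covariate, 13 below 9000 alone, 1 from 9000 up alone, 28 without the libraries apart, 3 in the Ion Proton and 21 in the WT table, and 80 with CA3 and DG scores as covariates. For age in CA3, 0 became 6 by quantile normalisation, 9 by edgeR, 3 with the series as covariate, 1 below 9000 alone, 1 in the Ion Proton table and 7 with the scores. For age in DG, 42 became 93 with the series, 20 below 9000 and 6 from 9000 up alone, 12 and 16 in the Ion Proton and WT tables, and 94 with the scores. Without 1 rat these counts ran from 27 (without R1923) to 77 (without R9780) in CA1, from 0 to 8 (without R9780) in CA3 and from 25 (without R2221) to 82 (without R9881) in DG, and that for cognition in CA1 from 0 to 1 (without R2233). By edgeR 14, 2 and 1 genes differed between subfields in the comparisons named above. The Ion Proton table gave 1225 genes for the number series in CA1, 2989 in CA3, 2252 for CA1 against CA3 and 48 for CA1 against DG (78 in the Illumina table without the libraries apart), and 3 markers each in CA1 and for CA1 against CA3. Of 28 pairs of markers in CA1, 18 were called, against 7 below 9000 alone, 21 from 9000 up alone, 14 without the libraries apart and 17 in the Ion Proton table.

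Some values changed sign, none of the changes in level among them called. For age in CA1 these were Ndst4 without the libraries apart (0.19), Nts by edgeR (0.0013), Cftr in the Ion Proton table (−0.20), and Man1a1 by edgeR (−0.0029), with the series (−0.023), below 9000 (−0.026) and from 9000 up (−0.019) alone, in the Ion Proton table (−0.086) and with the scores (−0.075). For cognition they were Nts by edgeR (−0.066), from 9000 up (−0.033), without the libraries apart (−0.060), in the WT table (−0.043) and with the scores (−0.082). Without 1 rat the age change ran from −0.20 to 0.38 for Cftr, −0.11 to 0.074 for Man1a1 and −0.21 to 0.089 for Ndst4, and the cognition change of Nts from −0.13 to 0.22. For the number series Wfs1 in CA1 became 0.14 in the Ion Proton table and 0.040 without the libraries apart, and the difference between CA1 and DG became 0.12 for Wfs1, −0.19 for Cd3e and −0.14 for Cftr in the Ion Proton table. The r of Cd3e and Cftr was −0.38 over all CA1 libraries, which was called, and 0.30 from 9000 up. That of Ndst4 and Cd3e was −0.36 over all, not called, though their rho of −0.51 was (permutation test, adjusted p = 0.0051). Their r was −0.47 without the libraries apart and 0.61 from 9000 up, both called. The r of Wfs1 and Ndst4 was −0.39 below 9000, not called, and 0.87 from 9000 up, called. Few reads limit Fibcd1 in the Illumina and WT tables and Cd3e in CA3.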

Other observations

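The markers took different places in the tables. By CA1 excess Nts had rank 1 in all 3 tables, of 14179 Illumina, 15282 Ion Proton and 13655 WT genes. Cd3e had ranks 2, 2 and 3, and Cftr ranks 3, 5 and 2. Fibcd1 had rank 34 in the Ion Proton table, with an excess of 1.43 on the log2 scale, and had 0.89 in the Illumina table, where its mean was under 10.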
